A study of Mus musculus with 8 samples.

Results

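Cell lines from 2 mouse models of mammary carcinoma were compared, 2 lines per model: Epcam hi and 687g, from tumours of the MMTV-PyMT-Snail-IRES-YFP model, against pB2 and pB3, from tumours of the MMTV-PyMT model. The genes of interest were those for which all 4 libraries of one model lay above all 4 libraries of the other, whatever the epithelial or mesenchymal state of the line. They numbered 2402 of the 15890 genes tested (15.1%), in a table of 53379 genes, and all 8 libraries of the series were used. Messenger RNA was sequenced from cells grown as a monolayer in DMEM/F12 with 5% adult bovine serum, with 2 libraries per line. All 4 lines carry the MMTV-PyMT transgene on the C57BL/6 background. The added Snail-IRES-YFP allele, called a reporter in the labels, distinguishes the first model from the second. Its structure and locus are not given in the sources used here, so whether reads from it count toward Snai1 is unknown, and the yellow fluorescent protein was not analysed here. The MMTV promoter drives the polyoma middle T oncogene in mammary epithelium. Each line stands for itself: the labels give neither the tumour, the clone number nor the passage, and they do not say whether the 2 libraries of a line are separate cultures. With 2 lines per model, a property of the model and a property of the individual line or tumour cannot be told apart.

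In the epithelial-mesenchymal transition (EMT), carcinoma cells lower cadherin and Epcam-type adhesion and gain vimentin and matrix genes. Snail, the product of Snai1, is a transcriptional repressor that binds E-box sequences in promoters such as that of E-cadherin and starts this programme. Polyoma middle T acts at the membrane and recruits Src, phosphatidylinositol 3-kinase and Shc. Tumour-derived lines of such models also differ in features that each tumour acquires or inherits from its cell of origin, among them the Hox code, which records position along the body, the p53 response to stress and DNA damage, and the use of glycolysis.

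Total counts ranged from 13701156 to 19149916 per library in the Snail-IRES-YFP lines and from 12442730 to 16895237 in the MMTV-PyMT lines. A count of 3 in a single library equals 0.157 to 0.241 CPM (read counts scaled to library size), and levels below that rest on very few reads. The 2 libraries of a line correlated at r = 0.967 in Epcam hi, 0.983 in 687g, 0.991 in pB2 and 0.993 in pB3 on the log2 scale, so the Snail-IRES-YFP libraries were the less alike. Mitochondrial genes held 0.375% to 1.9% of counts in the Snail-IRES-YFP libraries and 0.456% to 0.887% in the MMTV-PyMT libraries.

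Snai1 was read first, as the gene named in the label. It had 5.34 and 3.72 CPM in Epcam hi and 25.8 and 14.7 CPM in 687g, against 14.6 and 17.9 CPM in pB2 and 8.39 and 10.7 CPM in pB3. The highest and the lowest libraries both belonged to the Snail-IRES-YFP model and the groups overlapped. The log2 difference of the model averages, Snail-IRES-YFP over MMTV-PyMT, was -0.39 ± 0.21 (SE, adjusted p = 0.153). Without 687g replicate 1 it was -0.62 with an adjusted p of 0.0269, so a single library moved it past the threshold.

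The EMT markers placed a line with high and a line with low vimentin in each model. Vim, which encodes the mesenchymal filament vimentin, had 21.3 and 32.4 CPM in Epcam hi and 3380 and 2330 CPM in 687g, against 13.8 and 14.1 CPM in pB2 and 2310 and 2430 CPM in pB3. Cdh1, which encodes E-cadherin, had 457 and 519 CPM in Epcam hi and 1.9 and 0.738 CPM in 687g, against 143 and 167 CPM in pB2 and 51.8 and 50.9 CPM in pB3. Epcam, the epithelial adhesion molecule, stood at 1410 and 1540 CPM in Epcam hi and 3.85 and 3.69 CPM in 687g, against 578 and 552 CPM in pB2 and 278 and 264 CPM in pB3. The Snail-IRES-YFP lines held both the highest and the lowest libraries of Cdh1 and Epcam, and the models overlapped for all 3 genes. A mean over log values and a mean over CPM then point in opposite directions: the log2 difference of Cdh1 was -1.79 ± 0.19 and that of Epcam -2.39 ± 0.13, while the mean CPM of Cdh1 was 245 in the Snail-IRES-YFP lines and 103 in the MMTV-PyMT lines, and that of Epcam was 738 and 418. With the counts of each line summed, the log2 differences were 1.19 for Cdh1 and 0.78 for Epcam. The averages over a model therefore describe no single line for these genes, and counts by the average are given below beside counts of genes without overlap.

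The same fit was read in 3 ways. By the average of the 2 Snail-IRES-YFP lines over the average of the 2 MMTV-PyMT lines, 3376 genes were higher (21.2% of those tested) and 3424 lower (21.5%) at an adjusted p under 0.05 in edgeR's quasi-likelihood test. Genes without overlap between the 8 libraries numbered 1154 higher (7.26%) and 1248 lower (7.85%), together 15.1%. The strictest reading asked that Epcam hi and 687g each differ from pB2 and from pB3, in the same direction, with the largest of the 4 p-values adjusted over all genes. It called 164 genes higher (1.03%) and 181 lower (1.14%), together 2.17%, and adjusted p-values below are from this reading unless the average is named. Without pB2 replicate 1 the strict reading called 111 higher and 113 lower, without pB2 replicate 2 107 and 108, without pB3 replicate 1 86 and 119, and without pB3 replicate 2 86 and 117. Adjusting each line pair separately, a rule added after the data were seen, gave 336 higher (2.11%) and 353 lower (2.22%).

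These tests measure differences among 4 lines against the spread between libraries of a line. When the counts of each line were summed and 2 lines were compared with 2 lines, 0 genes were called in either direction by edgeR, where the smallest adjusted p was 0.887, and 202 higher and 303 lower genes had an unadjusted p under 0.05. The common dispersion was 0.582 between lines of a model and 0.0318 between libraries of a line. With 2 lines a side the smallest exact two-sided permutation p for any single gene is 0.333.

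Most non-overlapping genes were separated by a narrow margin. The gap, which is the lowest library of the higher model minus the highest library of the lower model in log2 CPM, had a median of 0.23 among the higher genes and 0.24 among the lower genes. It ran from 0.00 for Arpc1b to 7.11 for Ereg. A gap of over 2-fold was found in 151 higher and 199 lower genes. The lines of a model also differed among themselves: pB3 over pB2 was called for 44.8% of genes and 687g over Epcam hi for 36.4%. Of the 164 genes higher in all 4 line pairs, 41 (25%) were called in neither comparison within a model, as were 48 of the 181 lower genes (26.5%), against 39.6% of all genes tested.

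The named genes were limited to protein-coding ones averaging 10 CPM or more in their higher model, and those with the widest gaps on the higher side included a growth factor, an exporter, a receptor subunit and an enzyme of creatine synthesis. They were picked by the gap in these same values, so their p-values describe them and are no independent support. Ereg and Slc47a1 passed the filter on low counts only through the Snail-IRES-YFP side and could hardly be anything but higher. Gene positions below are whole gene spans on GRCm38. Ereg (ENSMUSG00000029377, chr5:91074622-91093646) encodes epiregulin, a ligand of the EGF receptor family. It had 91.1 and 99.9 CPM in Epcam hi and 135 and 134 CPM in 687g, against 0 and 0.212 CPM in pB2 and 0.537 and 0.323 CPM in pB3. All Snail-IRES-YFP libraries were far above, and the groups did not overlap. The log2 difference was 8.89 ± 0.26 (adjusted p = 2.41e-08), and it was 10.91 without pB2 replicate 2, since pB2 replicate 1 had no read. Slc47a1 (ENSMUSG00000010122, chr11:61343401-61378345), an exporter of organic cations known from kidney and liver, had 40.3 and 45.2 CPM in Epcam hi and 107 CPM in both 687g libraries, against 0.074 and 0.053 CPM in pB2 and 0.537 and 0.194 CPM in pB3. Its log2 difference was 8.72 ± 0.25 (adjusted p = 3.06e-08) and the groups did not overlap, with 687g the higher of its model.

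Gatm (ENSMUSG00000027199, chr2:122594467-122611303) encodes the enzyme of the first step of creatine synthesis. It had 329 and 240 CPM in Epcam hi and 342 and 359 CPM in 687g, against 0.296 and 0.212 CPM in pB2 and 6.65 and 7.76 CPM in pB3 (log2 difference 7.86 ± 0.2, adjusted p = 2.41e-08). The 4 Snail-IRES-YFP libraries were close together, whereas pB3 lay above pB2 by 4.82 on the log2 scale. The uncharacterised gene 2310007B03Rik (ENSMUSG00000034159, chr1:93151349-93160948) showed the same layout, with 108 and 68.8 CPM in Epcam hi and 130 and 153 CPM in 687g, against 0 and 0.053 CPM in pB2 and 1.48 and 2.07 CPM in pB3. Its log2 difference of 8.73 ± 0.29 became 9.87 without pB2 replicate 2.

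For 2 further genes the MMTV-PyMT libraries held only 2 reads in all, so the difference is given as a ratio of count sums. Both passed the filter on low counts only through the Snail-IRES-YFP side and could hardly be anything but higher. Gabbr2 (ENSMUSG00000039809, chr4:46662305-46991873), a subunit of the metabotropic GABA receptor, had 6.96 and 8.47 CPM in Epcam hi and 16.5 and 9.73 CPM in 687g, against 0.074 and 0 CPM in pB2 and 0 and 0.0647 CPM in pB3. The ratio was 334 with a 95% counting interval of 92 to 2760 (adjusted p = 1.75e-05). Trim54 (ENSMUSG00000062077, chr5:31116712-31137630), a muscle-associated TRIM protein, had 28 and 10.4 CPM in Epcam hi and 3.9 and 4.23 CPM in 687g, against 0.074 and 0 CPM in pB2 and 0 and 0.0647 CPM in pB3, a ratio of 347 (95.7 to 2870, adjusted p = 0.000576). Neither gene overlapped between models, and the Trim54 level in Epcam hi was the higher of its model.

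**Figure D1:**
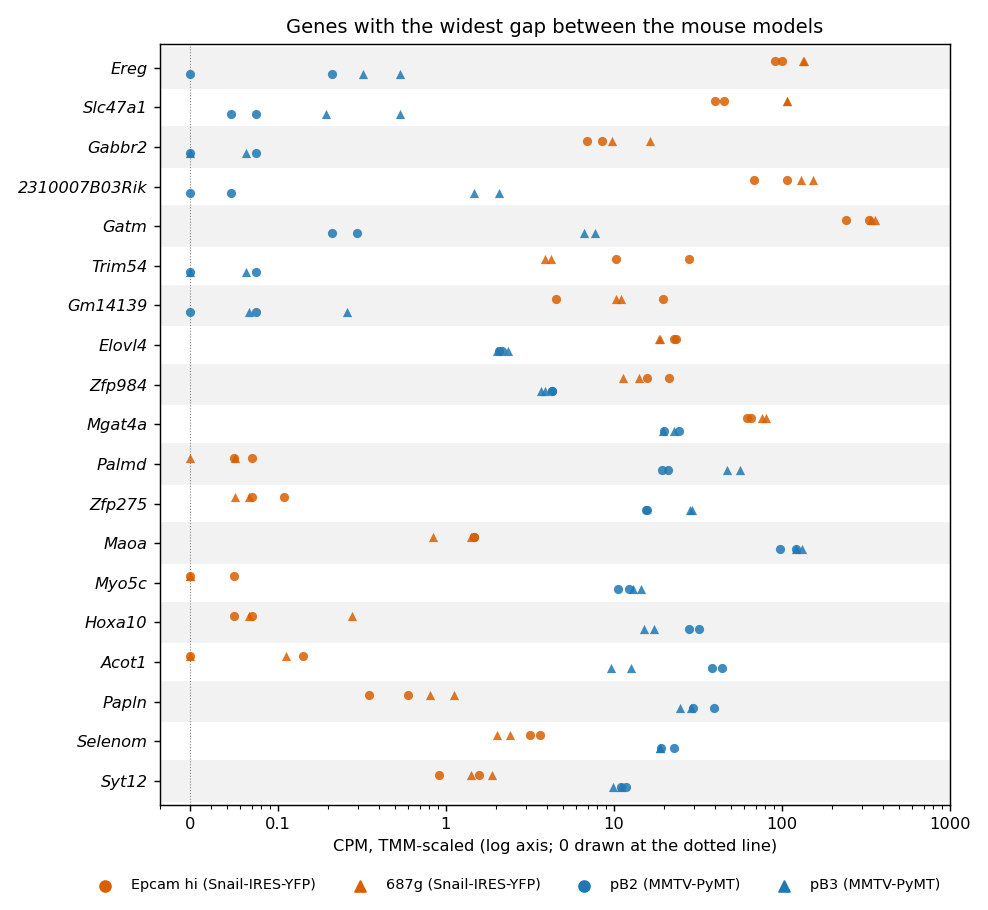
TMM-scaled CPM on a log axis in each of the 8 libraries for the genes with the widest gap and for those even within each model; orange marks the Snail-IRES-YFP lines, blue the MMTV-PyMT lines, and libraries without a read sit on the dotted line. Ereg lies at 91.1 to 135 CPM in orange and at 0 to 0.537 CPM in blue, and no gene shown has overlapping colours.

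On the lower side the widest gaps included genes with few or no reads in the Snail-IRES-YFP lines. Palmd, Myo5c, Zfp275 and Acot1 passed the filter on low counts only through the MMTV-PyMT side and could hardly be anything but lower. They too were picked by the gap in these same values, so their p-values and ratios are descriptive. Palmd (ENSMUSG00000033377, chr3:116918258-116968987), which encodes the membrane-associated protein palmdelphin, had 0.0703 and 0.0547 CPM in Epcam hi and 0.0558 and 0 CPM in 687g, against 21.2 and 19.5 CPM in pB2 and 47.1 and 56.5 CPM in pB3. The 4 Snail-IRES-YFP libraries held 3 reads together, against 2230 in the MMTV-PyMT libraries, and the ratio, MMTV-PyMT over Snail-IRES-YFP, was 774 (95% counting interval 265 to 3760, adjusted p = 9.17e-08). Myo5c (ENSMUSG00000033590, chr9:75232020-75305451), a myosin of epithelial secretory vesicles, had 0 and 0.0547 CPM in Epcam hi and 0 CPM in both 687g libraries, against 10.6 and 12.3 CPM in pB2 and 13 and 14.5 CPM in pB3. The single read on the Snail-IRES-YFP side gave a ratio in the same direction of 826 with an interval of 148 to 32700 (adjusted p = 2.4e-06).

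Maoa (ENSMUSG00000025037, chrX:16619698-16687818), the monoamine oxidase that breaks down serotonin and noradrenaline, had 1.48 CPM in both Epcam hi libraries and 0.836 and 1.41 CPM in 687g, against 122 and 97.8 CPM in pB2 and 121 and 133 CPM in pB3. It fell by 6.52 ± 0.19 on the log2 scale (adjusted p = 2.41e-08), and the lines of each model lay close together. The zinc finger gene Zfp275 (ENSMUSG00000031365, chrX:73342621-73359080) had 0.0703 and 0.109 CPM in Epcam hi and 0.0558 and 0.0671 CPM in 687g, against 15.6 and 15.7 CPM in pB2 and 28.6 and 29.1 CPM in pB3 (log2 difference -8.00 ± 0.27, adjusted p = 9.84e-08). Acot1 (ENSMUSG00000072949, chr12:84009490-84018371), an enzyme that releases fatty acids from acyl-CoA, had 0.141 and 0 CPM in Epcam hi and 0.112 and 0 CPM in 687g, against 44 and 38.5 CPM in pB2 and 9.6 and 12.7 CPM in pB3. Its log2 difference was -8.28 ± 0.38 (adjusted p = 3.64e-06), moving to -9.87 without Epcam hi replicate 1 and to -9.83 without 687g replicate 1. Acot1 has close paralogs beside it, so reads counted to it may be shared with them.

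Some genes differed between models while being even within each, by the rule that the lines of the higher model lie within 1.5-fold of each other and neither comparison within a model is called. Ereg and Maoa met it. Elovl4, an elongase of very long chain fatty acids, had 22.8 and 23.5 CPM in Epcam hi and 18.9 and 18.7 CPM in 687g, against 2.07 and 2.17 CPM in pB2 and 2.35 and 2.01 CPM in pB3. The spread within a model was small beside the log2 difference of 3.27 ± 0.17 (adjusted p = 4.26e-06). Mgat4a, which adds branches to N-linked glycans, had 65.7 and 62 CPM in Epcam hi and 80.7 and 76 CPM in 687g, against 20 and 24.5 CPM in pB2 and 19.7 and 23 CPM in pB3 (log2 difference 1.69 ± 0.13, adjusted p = 0.000262). The predicted gene Gm14139 had 4.57 and 19.7 CPM in Epcam hi and 10.4 and 11.1 CPM in 687g, against 0.074 and 0 CPM in pB2 and 0.0671 and 0.259 CPM in pB3. It passed the filter on low counts only through the Snail-IRES-YFP side and could hardly be anything but higher. Its log2 difference of 7.13 ± 0.62 (adjusted p = 0.000527) was 8.30 without pB2 replicate 1, 7.73 without pB3 replicate 2 and 6.41 without Epcam hi replicate 2.

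Of the 20 lower genes that were even within models, the 5 with the widest gap were Maoa, Myo5c, Papln, Selenom and Syt12. Papln, the matrix protein papilin, had 0.351 and 0.601 CPM in Epcam hi and 1.12 and 0.805 CPM in 687g, against 29.7 and 39.6 CPM in pB2 and 24.7 and 28.7 CPM in pB3, a log2 difference of -5.45 ± 0.22 (adjusted p = 6.63e-07). Selenom, a selenoprotein of the endoplasmic reticulum, had 3.65 and 3.17 CPM in Epcam hi and 2.4 and 2.01 CPM in 687g, against 22.9 and 19.1 CPM in pB2 and 18.9 and 18.8 CPM in pB3 (log2 difference -2.85 ± 0.17, adjusted p = 2.91e-05). Syt12, of the synaptotagmin family, had 0.913 to 1.9 CPM in the Snail-IRES-YFP libraries, against 9.87 to 11.8 CPM in the MMTV-PyMT libraries (log2 difference -2.91 ± 0.23, adjusted p = 0.000196). All 4 Snail-IRES-YFP libraries of each gene stood below all 4 MMTV-PyMT libraries.

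Further genes called in all 4 line pairs were picked after their values were seen, for their roles in adhesion and signalling. Tns4, a tensin of focal adhesions, had 483 and 418 CPM in Epcam hi and 873 and 574 CPM in 687g, against 0.961 and 1.43 CPM in pB2 and 33.5 and 30.5 CPM in pB3 (adjusted p = 6.63e-07). Jag2, a Notch ligand, had 27.5 and 36.7 CPM in Epcam hi and 15.9 and 12.4 CPM in 687g, against 0.518 and 0.583 CPM in pB2 and 1.75 and 1.36 CPM in pB3 (adjusted p = 1.68e-05). Havcr2, which encodes the immune checkpoint receptor Tim-3, had 13.5 and 18.3 CPM in Epcam hi and 38.9 and 42.7 CPM in 687g, against 0 and 0.053 CPM in pB2 and 1.95 and 1.94 CPM in pB3 (adjusted p = 1.68e-05). The lines of a model were not level for any of the 3, yet no library crossed between models. On the lower side, Gas1, a membrane protein that binds Hedgehog ligands, had 0 CPM in both Epcam hi libraries and 0 and 0.134 CPM in 687g, against 21.4 and 21.5 CPM in pB2 and 9.87 and 8.54 CPM in pB3. Itgb8, the integrin subunit that activates latent TGF-beta, had 0 and 0.0547 CPM in Epcam hi and 0 and 0.0671 CPM in 687g, against 26.1 and 33.6 CPM in pB2 and 2.75 and 2.72 CPM in pB3. Each of the pair had 2 reads on the Snail-IRES-YFP side, and the ratio, MMTV-PyMT over Snail-IRES-YFP, was 507 for Gas1 (140 to 4190) and 557 for Itgb8 (154 to 4610). Both passed the filter on low counts only through the MMTV-PyMT side and could hardly be anything but lower.

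The promoters of Gatm and Maoa are shown because these genes were among those with the widest gaps, 1 in each direction, at substantial levels. Snail is known to bind the E-box written CAGGTG or, on the other strand, CACCTG. The sequences are the 250 bases before the transcription start from RefSeq on build GRCm38.p6, with the E-box in capitals, for Gatm at chr2:122611278-122611527 on the minus strand and for Maoa at chrX:16619448-16619697 on the plus strand.
Gatm: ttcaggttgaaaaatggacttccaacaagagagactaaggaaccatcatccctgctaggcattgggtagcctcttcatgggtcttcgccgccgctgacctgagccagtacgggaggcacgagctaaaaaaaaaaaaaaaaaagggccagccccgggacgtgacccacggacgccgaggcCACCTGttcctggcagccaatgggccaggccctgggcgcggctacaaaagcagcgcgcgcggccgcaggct
Maoa: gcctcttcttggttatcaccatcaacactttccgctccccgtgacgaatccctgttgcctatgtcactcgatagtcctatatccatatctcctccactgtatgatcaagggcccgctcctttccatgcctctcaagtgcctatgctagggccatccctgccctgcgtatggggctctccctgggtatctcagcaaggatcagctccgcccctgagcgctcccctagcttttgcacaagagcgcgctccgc
The Gatm window held 1 match and the Maoa window 0. Among windows of this length, 15.7% of the 13541 windows of genes tested held the motif, as did 19.5% of 159 windows of genes higher in all 4 line pairs and 15.1% of 166 windows of genes lower in all 4. Of the 164 higher and 181 lower genes, 123 and 124 had a window under their symbol. A match is a run of letters and says nothing of binding in these cells.

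Gene lists for pathways and cell types gave the wider picture. Of the genes tested in the lists for epithelial adhesion, EMT transcription factors and mesenchymal cytoskeleton, 0 of 24, 0 of 16 and 1 of 13 were higher without overlap, and 1, 1 and 0 were lower. Among all genes the shares were 7.26% and 7.85%, so these counts were near or below the background. The lists with the largest share of non-overlapping genes were hypoxia and glycolysis, p53 targets and the TGF-beta response on the higher side, and cholesterol synthesis, the cell cycle and glutathione and detoxification on the lower side. The Hox list is left out of this ranking, since most of its tested genes passed the filter on low counts only through an MMTV-PyMT line. Some genes of the glutathione and detoxification list passed it in the same way.

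**Figure D2:**
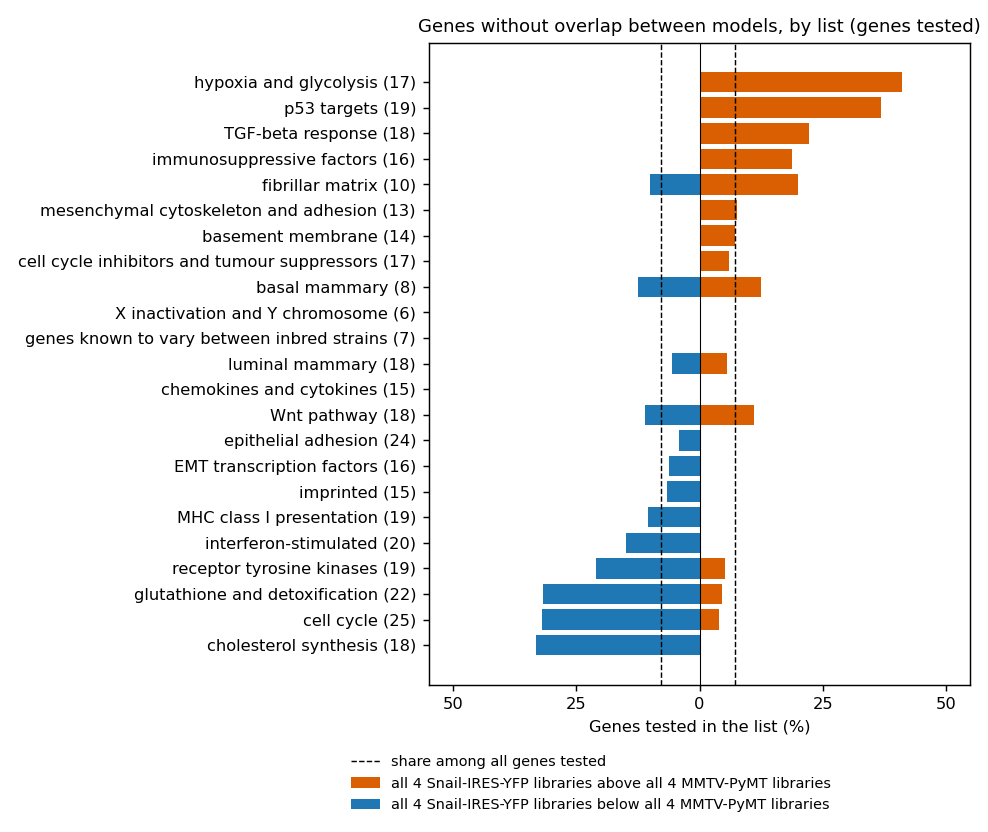
Share of the genes tested in each list (number in brackets) without overlap between models, to the right in orange for genes higher in the Snail-IRES-YFP lines and to the left in blue for genes lower in them; dashed lines give the shares among all genes tested, 7.26% and 7.85%. Hypoxia and glycolysis reach 41.2% on the right and cholesterol synthesis 33.3% on the left; the Hox list is not drawn.

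Targets of p53, the tumour suppressor that halts the cycle or triggers death after damage, gave more genes higher than lower in the Snail-IRES-YFP lines. Of 20 genes, 19 were tested. By the average 14 rose (73.7%, against 21.2% of all genes) and 1 fell (5.26%, against 21.5%). Without overlap 7 were higher (36.8%, against 7.26%) and 0 lower. The median log2 difference was 1.33, against 0.04 for all genes tested. The non-overlapping members were Ccng1, Polk, Trp53inp1, Phlda3, Zmat3, Mdm2 and Rrm2b, with gaps from 0.06 for Rrm2b to 0.97 for Trp53inp1. Of them 2, Trp53inp1 and Phlda3, were called in all 4 line pairs, against 1.03% of all genes called higher. Trp53inp1, a stress protein that promotes p53 activity and autophagy, had 81.8 and 95.9 CPM in Epcam hi and 77.2 and 59.9 CPM in 687g, against 24.4 and 24.6 CPM in pB2 and 28.3 and 30.6 CPM in pB3 (log2 difference 1.54 ± 0.14, adjusted p = 0.00232). Phlda3, which holds back Akt, had 147 and 168 CPM in Epcam hi and 170 and 140 CPM in 687g, against 49.3 and 48.6 CPM in pB2 and 65.9 and 76.4 CPM in pB3 (log2 difference 1.40 ± 0.13, adjusted p = 0.00308). Both were even across the Snail-IRES-YFP lines; without pB3 replicate 1 their adjusted p was 0.0641 for Trp53inp1 and 0.112 for Phlda3.

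For most other p53 targets Epcam hi stood highest. Mdm2, the ubiquitin ligase that p53 induces and that degrades it, had 426 and 566 CPM in Epcam hi and 146 and 149 CPM in 687g, against 96.6 and 77 CPM in pB2 and 130 and 132 CPM in pB3. Its 687g libraries cleared pB3 by 0.14 on the log2 scale. Cdkn1a, the cyclin-dependent kinase inhibitor p21, had 135 and 170 CPM in Epcam hi and 69.9 and 45.3 CPM in 687g, against 16 and 15.1 CPM in pB2 and 54.7 and 53.6 CPM in pB3, so the models overlapped, with an average log2 difference of 1.69 ± 0.16. Fas, a death receptor, was the member that fell by the average, with 0.167 to 3.44 CPM in the Snail-IRES-YFP libraries, against 25.4 and 22 CPM in pB2 and 1.07 and 0.776 CPM in pB3. Trp53 itself had 61.3 to 86.4 CPM in the Snail-IRES-YFP libraries and 64 to 98.9 CPM in the MMTV-PyMT libraries, a log2 difference of -0.12 ± 0.14 with an average adjusted p of 0.532. Cdkn2b, the kinase inhibitor p15, was taken from the list of cell cycle inhibitors and had 39.5 and 19.8 CPM in Epcam hi and 65.8 and 51.9 CPM in 687g, against 3.85 and 4.13 CPM in pB2 and 0.604 and 1.04 CPM in pB3 (log2 difference 4.52 ± 0.25, adjusted p = 0.000104). It was the single gene of the 17 in that list without overlap.

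Of 25 cell cycle genes, 17 fell by the average (68%, against 21.5% of all genes) and 2 rose (8%, against 21.2%). Without overlap 8 were lower (32%, against 7.85%) and 1 higher (4%, against 7.26%). In all 4 line pairs 0 were called in either direction. The median log2 difference was -0.58. The shares of all genes called in all 4 line pairs were 1.03% higher and 1.14% lower. The non-overlapping lower genes were Mki67, Ccna2, Cdk4, Cdc20, Plk1, Mcm5, Pcna and Birc5. Their gaps were narrow, from 0.01 for Birc5, 0.04 for Pcna, 0.07 for Mki67 and 0.12 for Ccna2 up to 0.40 for Mcm5. Mcm5, a subunit of the replicative helicase, had 117 and 113 CPM in Epcam hi and 80.6 and 56.6 CPM in 687g, against 266 and 216 CPM in pB2 and 154 and 178 CPM in pB3 (average log2 difference -1.17 ± 0.14). Cdc20, which activates the anaphase-promoting complex, had 104 and 88 CPM in Epcam hi and 56.5 and 49.6 CPM in 687g, against 173 and 151 CPM in pB2 and 126 and 140 CPM in pB3 (-1.04 ± 0.13). In both genes 687g was the lowest line. The higher gene without overlap was Myc, a growth-promoting transcription factor, with 304 and 247 CPM in Epcam hi and 179 and 147 CPM in 687g, against 38.8 and 54.2 CPM in pB2 and 92.7 and 96.3 CPM in pB3. In bulk RNA fewer dividing cells and less RNA per dividing cell cannot be told apart.

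Of the glycolytic and hypoxia-responsive genes all 17 listed were tested, of which 14 rose and 1 fell by the average (9 rose without pB3 replicate 1), 7 were higher and 0 lower without overlap, and the median log2 difference was 0.56. Among all genes 21.2% were higher by the average and 7.26% without overlap, against 82.4% and 41.2% in this list. The non-overlapping genes were Hk2, Bnip3, Pgk1, Ldha, Pfkl, Aldoa and Tpi1. The 2 called in all 4 line pairs were Hk2 and Pgk1, against 1.03% of all genes called higher. Their gaps ran from 0.04 for Tpi1 to 1.32 for Hk2. Hk2, the hexokinase that traps glucose in many tumours, had 86.4 and 94.5 CPM in Epcam hi and 105 and 78.5 CPM in 687g, against 8.65 and 12 CPM in pB2 and 31.4 and 26.3 CPM in pB3 (log2 difference 2.40 ± 0.16, adjusted p = 0.000467). Pgk1, the kinase of the first ATP-yielding step of glycolysis, had 47.1 and 56.4 CPM in Epcam hi and 165 and 189 CPM in 687g, against 28.8 and 22.7 CPM in pB2 and 25.2 and 27.6 CPM in pB3 (log2 difference 1.88 ± 0.14, adjusted p = 0.014). Pgk1 was highest in 687g and Hk2 lowest in pB2. The Pgk1 call was lost without pB2 replicate 2 (adjusted p = 0.211), pB3 replicate 1 (0.271), pB3 replicate 2 (0.14) or Epcam hi replicate 2 (0.0701).

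Ldha, lactate dehydrogenase A, had 785 and 1230 CPM in Epcam hi and 997 and 1270 CPM in 687g, against 673 and 555 CPM in pB2 and 601 and 656 CPM in pB3, an average log2 difference of 0.78 ± 0.16. Its subunit partner Ldhb, named after its values were seen, ran the other way, with 0.164 to 0.558 CPM in the Snail-IRES-YFP libraries and 10.8 to 26.3 CPM in the MMTV-PyMT libraries (log2 difference -5.66 ± 0.26, adjusted p = 4.11e-06). Neither overlapped between models. Members that mark acid and lactate handling did not follow the model: Slc16a3, a lactate exporter, had 0.773 and 0.711 CPM in Epcam hi and 78.6 and 93.1 CPM in 687g, against 0.074 and 0 CPM in pB2 and 16.6 and 20.4 CPM in pB3. Car9, a carbonic anhydrase induced by low oxygen, had 119 and 156 CPM in Epcam hi and 1.67 and 1.61 CPM in 687g, against 54.3 and 54.6 CPM in pB2 and 10.1 and 10.7 CPM in pB3. Vegfa, the endothelial growth factor, taken from the list of immunosuppressive factors, had 173 and 160 CPM in Epcam hi and 247 and 320 CPM in 687g, against 42.2 and 43.7 CPM in pB2 and 82.9 and 88.4 CPM in pB3 (log2 difference 1.84 ± 0.13, adjusted p = 0.00924). Its call was lost without pB3 replicate 1 (adjusted p = 0.213) or pB3 replicate 2 (0.13). Several glycolytic genes have processed pseudogenes that can share reads with them, and the treatment of reads with several matches is not given in the sources used here.

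The Hk2 and Pgk1 promoters are shown because the hypoxia-inducible factors bind the core ACGTG, read as CACGT on the other strand, and these genes of the list were called in all 4 line pairs. They are the 250 bases before the start from RefSeq on GRCm38.p6 with the core in capitals, for Hk2 at chr6:82774455-82774704 on the minus strand and for Pgk1 at chrX:106186850-106187099 on the plus strand.
Hk2: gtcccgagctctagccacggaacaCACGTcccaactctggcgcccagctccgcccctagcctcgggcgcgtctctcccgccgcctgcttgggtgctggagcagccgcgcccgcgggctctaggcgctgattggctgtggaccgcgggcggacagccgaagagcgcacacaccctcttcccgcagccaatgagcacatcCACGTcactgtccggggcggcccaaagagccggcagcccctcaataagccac
Pgk1: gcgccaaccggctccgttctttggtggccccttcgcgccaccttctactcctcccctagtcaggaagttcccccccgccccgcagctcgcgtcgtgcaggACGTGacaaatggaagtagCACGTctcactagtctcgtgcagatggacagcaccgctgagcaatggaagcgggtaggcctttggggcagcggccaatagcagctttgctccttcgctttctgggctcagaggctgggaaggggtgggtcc
Each window held 2 matches. The core was present in 11 of 25 windows of genes in the list (44%), in 21.1% of the 13541 windows of genes tested, and in 16.4% of the windows of genes higher in all 4 line pairs. The 2 spellings overlap where CACGTG occurs, and no share was tested.

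**Figure D3:**
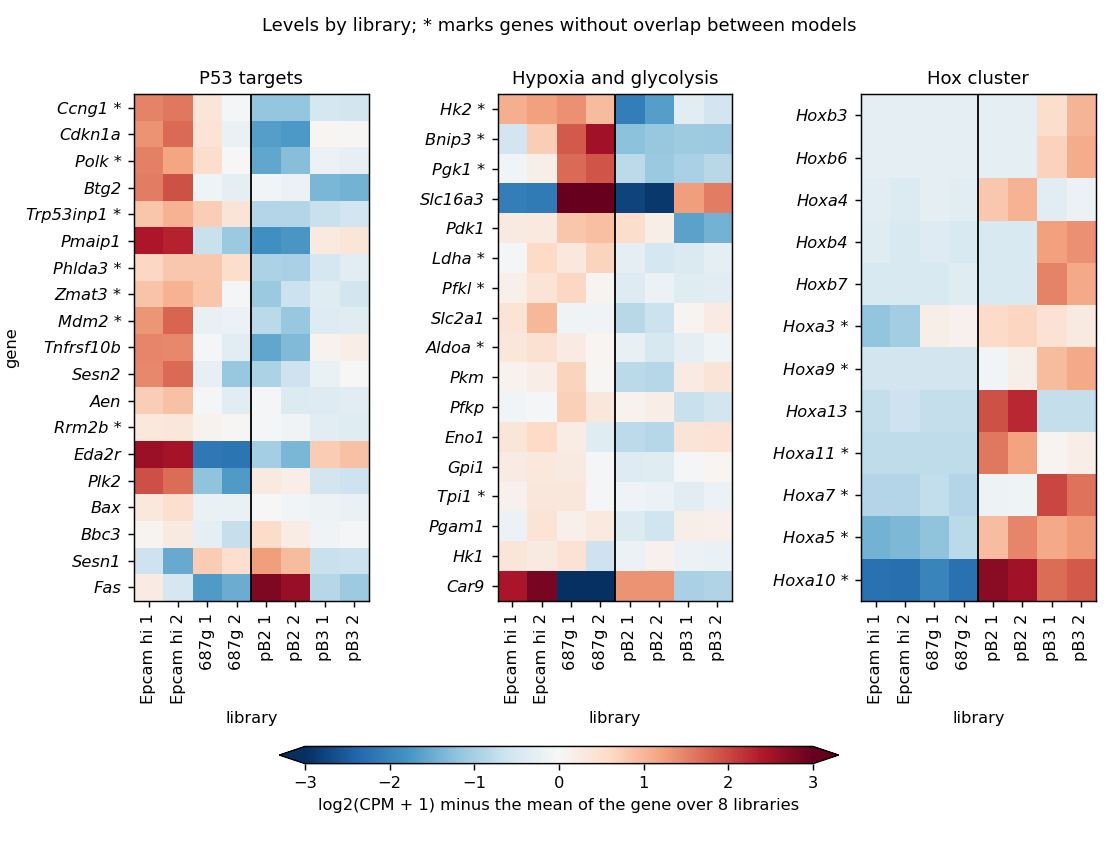
Log2(CPM + 1) of each gene minus its mean over the 8 libraries, with Epcam hi and 687g left of the line and pB2 and pB3 right of it; asterisks mark genes without overlap, colours saturate at 3, and 1 tested Hox gene is not drawn. Hk2 and Trp53inp1 are above their mean in all 4 Snail-IRES-YFP libraries and Hoxa10 is below it, while Car9 and Slc16a3 split each model.

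Of 32 Hox genes 13 were tested, and 8 of these had at most 3 reads over the Snail-IRES-YFP libraries. Such genes passed the filter on low counts only through an MMTV-PyMT line and could hardly be anything but lower, so no share or median is drawn from the list; with at least 10 CPM required in 2 libraries, 1 Hox gene remained. Hoxa10 (ENSMUSG00000000938, chr6:52231197-52240854), a regulator of posterior identity known from uterus and limb, had 0.0703 and 0.0547 CPM in Epcam hi and 0.279 and 0.0671 CPM in 687g, against 32.2 and 28.1 CPM in pB2 and 15.1 and 17.3 CPM in pB3 (log2 difference -7.59 ± 0.3, adjusted p = 5.73e-07; -8.26 without 687g replicate 1). Its neighbour Hoxa11 had no read in any Snail-IRES-YFP library, against 4.14 and 2.97 CPM in pB2 and 0.806 and 0.97 CPM in pB3. With 3 counts over the 4 libraries as a floor, it was at least 48.3-fold lower in the Snail-IRES-YFP lines (adjusted p = 0.00748); without 687g replicate 1 the adjusted p was 0.0717 and without 687g replicate 2 it was 0.0569.

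Hoxa3, Hoxa5, Hoxa7 and Hoxa9 were also lower without overlap, Hoxa3 by a gap of 0.15. Hoxa5 had 0 to 0.537 CPM in the Snail-IRES-YFP libraries and 4.14 to 6.41 CPM in the MMTV-PyMT libraries (adjusted p = 0.000941). Hoxa9 had no read in the Snail-IRES-YFP libraries, against 0.37 and 0.636 CPM in pB2 and 1.81 and 2.2 CPM in pB3, and was at least 27.1-fold lower (adjusted p = 0.032). Hoxa7 had 2 reads in the Snail-IRES-YFP libraries, a ratio of 99.5 (27.2 to 827) in favour of the MMTV-PyMT lines, with an adjusted p of 0.0803 that missed the threshold. Other members belonged to a single MMTV-PyMT line: Hoxa13 had at most 0.0547 CPM in the Snail-IRES-YFP libraries, against 5.18 and 6.78 CPM in pB2 and 0 CPM in pB3, while Hoxb7 had at most 0.0671 CPM in the Snail-IRES-YFP libraries, against 0 CPM in pB2 and 2.82 and 2.01 CPM in pB3.

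On chromosome 6 the Hoxa cluster formed part of a run of 21 consecutive tested genes, from Hoxaas2 to Chn2 at chr6:52165674-54301810 on GRCm38, in which 9 were lower without overlap, among them Hox genes that passed the filter only through the MMTV-PyMT side. The median log2 difference of the run was -4.90 for Epcam hi over pB2 and -3.93 for 687g over pB2, but -0.20 for Epcam hi over pB3 and -0.34 for 687g over pB3. Hoxa6, in the run but not in the list, had 2 reads in the Snail-IRES-YFP libraries, against 0.518 to 1.32 CPM in the MMTV-PyMT libraries (adjusted p = 0.0495). Gm15050, also in the run, went the other way, with 6.41 to 12.1 CPM in the Snail-IRES-YFP libraries, against 1.33 to 2.69 CPM in the MMTV-PyMT libraries (log2 difference 2.13 ± 0.24, adjusted p = 0.0159). The run also held Tril, a modulator of Toll-like receptor signalling, with 0 CPM in 3 Snail-IRES-YFP libraries and 0.201 CPM in 687g replicate 2, against 9.1 and 14.1 CPM in pB2 and 3.36 and 2.98 CPM in pB3. Runs were selected after their values were seen and carry no test.

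Of 26 glutathione and detoxification genes, 22 were tested. By the average 14 fell (63.6%, against 21.5% of all genes) and 3 rose (13.6%, against 21.2%). Without overlap 7 were lower (31.8%, against 7.85%) and 1 higher (4.55%, against 7.26%). In all 4 line pairs 4 were called lower, Gstt1 among them, against 1.14% of all genes. The median log2 difference was -1.10. Gstt1, Gstt2, Gsta3 and Cyp1b1 passed the filter on low counts only through an MMTV-PyMT line and could hardly be anything but lower. With at least 10 CPM required in 2 libraries, 19 were tested, and 5 were lower and 1 higher without overlap. Gstt1, a glutathione transferase, had no read in the Snail-IRES-YFP libraries, against 32.2 and 28.4 CPM in pB2 and 0.671 and 0.906 CPM in pB3, and was at least 346-fold lower (adjusted p = 0.00351). Gstm1, of the mu class, had 0.281 and 0 CPM in Epcam hi and 1.56 and 1.27 CPM in 687g, against 10.6 and 11.9 CPM in pB2 and 10.9 and 10.7 CPM in pB3, a log2 difference of -4.67 ± 0.34 that became -6.72 without Epcam hi replicate 1 (adjusted p = 0.000621 with all libraries). The Gstt1 difference was carried mainly by pB2, while Gstm1 was even across the MMTV-PyMT lines. Nqo1, a quinone reductase induced by the antioxidant regulator Nrf2, had 0.562 and 0.328 CPM in Epcam hi and 1.56 and 3.02 CPM in 687g, against 278 and 239 CPM in pB2 and 6.04 and 7.12 CPM in pB3 (adjusted p = 0.00924). The gene higher without overlap was Gsto1, with 582 to 1070 CPM in the Snail-IRES-YFP libraries and 170 to 483 CPM in the MMTV-PyMT libraries. Glutathione transferases form families of similar sequence, and reads may be shared among them.

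All 18 cholesterol synthesis genes were tested. By the average 9 fell (50%, against 21.5% of all genes) and 1 rose (5.56%, against 21.2%). Without overlap 6 were lower (33.3%, against 7.85%). In all 4 line pairs 0 were called, against 1.03% higher and 1.14% lower among all genes. The median log2 difference was -0.40. Lss, which cyclises squalene epoxide to lanosterol, had 66.6 and 68.2 CPM in Epcam hi and 82.7 and 69.1 CPM in 687g, against 163 and 170 CPM in pB2 and 102 and 105 CPM in pB3 (average log2 difference -0.87 ± 0.12). Cyp51, the next enzyme of that route, had 365 to 456 CPM in the Snail-IRES-YFP libraries and 541 to 1460 CPM in the MMTV-PyMT libraries (-1.03 ± 0.13). In Lss and Cyp51 the pB2 libraries were the highest. The gaps of the 6 genes without overlap ran from 0.03 for Insig1 to 0.31 for Lss.

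Genes of the TGF-beta response were higher by the average in 11 of 18 (61.1%, against 21.2% of all genes) and lower in 2 (11.1%, against 21.5%). Without overlap 4 were higher (22.2%, against 7.26%) and 0 lower. The median log2 difference was 0.73. Inhba, the subunit of activin A, had 269 and 395 CPM in Epcam hi and 414 and 410 CPM in 687g, against 1.11 and 1.17 CPM in pB2 and 192 and 180 CPM in pB3 (log2 difference 4.66 ± 0.17, adjusted p = 0.0391). It separated the Snail-IRES-YFP lines widely from pB2 and by 0.48 from pB3, and 7 of the 8 fits that leave out a library lost the call: without pB2 replicates 1 and 2 (adjusted p = 0.108 and 0.11), pB3 replicates 1 and 2 (0.294 and 0.499), Epcam hi replicate 2 (0.325), and 687g replicates 1 and 2 (0.0555 and 0.0608). The other non-overlapping genes were Smad7, Skil and Bhlhe40, with gaps of 0.12, 0.10 and 0.59. They were not called in all 4 line pairs. The log2 difference of Epcam hi over pB3 was 0.16 for both Smad7 and Skil. Smad7 and Skil are negative regulators induced by the pathway. Smad7 had 81.3 to 273 CPM in the Snail-IRES-YFP libraries, against 14.6 to 75 CPM in the MMTV-PyMT libraries, and Skil had 137 to 301 CPM in the Snail-IRES-YFP libraries, against 95.5 to 128 CPM in the MMTV-PyMT libraries.

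Interferon-stimulated genes were lower by the average in 11 of 20 (6 without pB2 replicate 1 or without pB3 replicate 2, and 5 of 12 under the stricter filter) and higher in 1, with 3 lower and 0 higher without overlap and a median log2 difference of -0.53. The 11 lower by the average made 55% of the list, against 21.5% of all genes, and the 3 lower without overlap 15%, against 7.85%. Ifit2, an antiviral RNA-binding protein, had 1.62 and 0.601 CPM in Epcam hi and 0.39 and 0.0671 CPM in 687g, against 25.4 and 24.6 CPM in pB2 and 8.66 and 10.2 CPM in pB3 (log2 difference -4.89 ± 0.32, adjusted p = 0.000419). Without 687g replicate 1 the log2 difference was -5.76. Bst2, which tethers budding viruses, had 31 and 19.1 CPM in Epcam hi and 8.42 and 5.91 CPM in 687g, against 51.7 and 43 CPM in pB2 and 37.7 and 36.6 CPM in pB3. The gene that rose was Usp18, the protease that removes Isg15, with 37.4 and 28.5 CPM in Epcam hi and 2.79 and 1.07 CPM in 687g, against 1.11 and 0.848 CPM in pB2 and 1.01 and 1.36 CPM in pB3, so that Epcam hi stood apart.

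Keratins, receptors and Wnt antagonists supplied single genes. Krt14, a basal keratin, had 2.74 and 2.35 CPM in Epcam hi and 0.502 and 0.403 CPM in 687g, against 223 and 186 CPM in pB2 and 15 and 14.4 CPM in pB3 (log2 difference -5.66 ± 0.18, adjusted p = 1.27e-05). Krt19, a luminal keratin, had 2.67 and 2.51 CPM in Epcam hi and 0.836 and 0.671 CPM in 687g, against 6.8 and 7.05 CPM in pB2 and 79.4 and 86.5 CPM in pB3 (-4.09 ± 0.17, adjusted p = 0.00244). Both keratins were lower in all Snail-IRES-YFP libraries, with Krt14 highest in pB2 and Krt19 highest in pB3. Their lists did not fall as a whole. By the average 8 of 18 luminal genes tested were higher and 5 lower, and 3 of 8 basal genes were higher and 2 lower. Among all genes the shares were 21.2% and 21.5%. Without overlap each list had 1 gene higher and 1 lower (5.56% each in the luminal and 12.5% each in the basal list, against 7.26% and 7.85% of all genes). Krt20, a keratin outside the lists, went the other way (log2 difference 6.59, adjusted p = 0.00172). Ephb4, the receptor of ephrin-B2, had 30.9 and 27.9 CPM in Epcam hi and 52.6 and 39.5 CPM in 687g, against 229 and 268 CPM in pB2 and 100 and 106 CPM in pB3 (-2.12 ± 0.14, adjusted p = 0.00337). Pdgfra, a platelet-derived growth factor receptor, had 2.46 and 2.02 CPM in Epcam hi and 6.08 and 5.97 CPM in 687g, against 43.6 and 59.6 CPM in pB2 and 13.4 and 15.5 CPM in pB3 (-2.90 ± 0.17, adjusted p = 0.00742). Its call was lost without pB3 replicate 2 (adjusted p = 0.108), 687g replicate 1 (0.0583) or 687g replicate 2 (0.0617).

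Sfrp1, a secreted antagonist of Wnt, had 3.09 and 1.2 CPM in Epcam hi and 24 and 20 CPM in 687g, against 191 and 196 CPM in pB2 and 51.5 and 51.6 CPM in pB3 (log2 difference -3.88 ± 0.2, adjusted p = 0.0169). The groups did not overlap, and 687g was the nearer line to the MMTV-PyMT libraries. The call was lost without pB2 replicates 1 and 2 (adjusted p = 0.0622 and 0.0633), pB3 replicates 1 and 2 (0.0819 and 0.0873) or 687g replicates 1 and 2 (0.0588 and 0.139). Of the 19 receptor tyrosine kinases tested, 4 were lower and 1 higher without overlap, and of the 18 Wnt genes, 2 were lower and 2 higher, against 7.85% lower and 7.26% higher among all genes.

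The region within 5 Mb of Snai1 on chromosome 2 held 96 tested genes, of which 5 were higher and 9 lower without overlap, near the shares of 7.26% and 7.85% among all genes, and the median log2 difference was -0.21. In all 4 line pairs 1 was higher and 1 lower, against 1.03% and 1.14% of all genes. The gene higher in all 4 line pairs there was Cd40, a receptor of the TNF family, with 1.83 and 1.15 CPM in Epcam hi and 1.06 and 2.62 CPM in 687g, against 0.074 and 0 CPM in pB2 and 0.0671 and 0.0647 CPM in pB3. It passed the filter on low counts only through the Snail-IRES-YFP side and could hardly be anything but higher. The MMTV-PyMT libraries held 3 reads, and the ratio was 33.6 (11.2 to 166, adjusted p = 0.0154), lost without pB2 replicate 2 (0.188), pB3 replicate 1 (0.134), pB3 replicate 2 (0.147) or 687g replicate 2 (0.0801). The gene lower in all 4 was Eya2, a transcriptional coactivator with phosphatase activity, with 9.84 and 7 CPM in Epcam hi and 5.52 and 4.76 CPM in 687g, against 33.5 and 38.6 CPM in pB2 and 16.9 and 19.1 CPM in pB3 (log2 difference -1.95 ± 0.16, adjusted p = 0.0179). That call was lost without pB2 replicates 1 and 2 (0.0526 and 0.0561), pB3 replicates 1 and 2 (0.086 and 0.243) or Epcam hi replicate 2 (0.107).

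The share of non-overlapping genes varied by chromosome. Chromosome 19 had 83 of 494 genes lower (16.8%) and 20 higher (4.05%). The median log2 difference there was 0.05 for Epcam hi over pB2 and 0.10 for 687g over pB2, but -0.35 for Epcam hi over pB3 and -0.37 for 687g over pB3, so the lower level was seen against pB3. Chromosome 6 had 11% higher and chromosome 14 10.7% lower, against 7.26% and 7.85% of all genes. On chromosome 6 the medians were 0.43 and 0.38 for Epcam hi over pB2 and pB3, but 0.00 and -0.05 for 687g. On chromosome 14 they were -0.16 and -0.26 for Epcam hi, but 0.22 and 0.05 for 687g. These shifts were thus seen in Epcam hi and not in 687g. Chromosome X had 9.42% higher, and its 4 medians ran from 0.08 to 0.38.

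**Figure D4:**
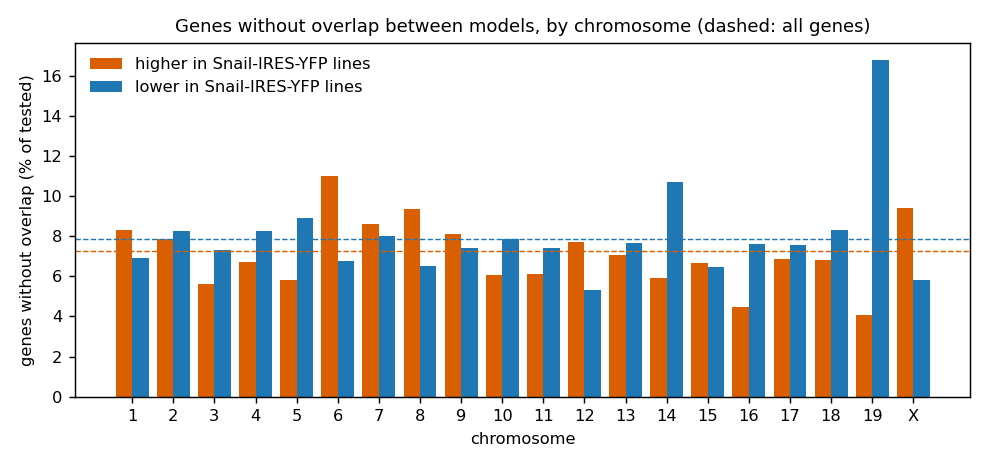
Percent of the genes tested on each chromosome that did not overlap between models, in orange for higher and in blue for lower in the Snail-IRES-YFP lines, with dashed lines for all genes. Chromosome 19 stands out with 16.8% lower, against 7.85% of all genes.

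A run of 21 tested genes on chromosome 4, from Gm13121 to Gm20707 at chr4:144526411-147809840, held 9 genes higher without overlap. Its median log2 difference was 1.86, and the 4 line pairs gave medians from 0.96 to 2.30. It held 7 zinc finger genes named Zfp, of which 6 were higher without overlap: Zfp979, Zfp984, Zfp985, Zfp991, Zfp992 and Zfp993. All of these but Zfp984 had at most 0.37 CPM in any MMTV-PyMT library, and Gm13147 had no read there. Such genes passed the filter on low counts only through the Snail-IRES-YFP side and could hardly be anything but higher. Among all genes 7.26% were higher without overlap, but no share is drawn from the run, which was selected after its values were seen. Zfp979 had 5.62 and 11.2 CPM in Epcam hi and 6.52 and 6.44 CPM in 687g, against 0.148 and 0 CPM in pB2 and 0.201 and 0.0647 CPM in pB3 (adjusted p = 0.000183). Zfp984 had 15.9 and 21.4 CPM in Epcam hi and 11.4 and 14.2 CPM in 687g, against 4.29 CPM in both pB2 libraries and 3.69 and 3.88 CPM in pB3 (log2 difference 1.94 ± 0.18, adjusted p = 0.00281; 0.054 without pB2 replicate 2). Zfp992 had 0.167 to 1.86 CPM in the Snail-IRES-YFP libraries and no read in the MMTV-PyMT libraries, at least 17.3-fold higher, with an adjusted p of 0.298. The adjusted p was 0.167 for Zfp985, 0.273 for Zfp991 and 0.444 for Zfp993, so 4 of the 6 were not called in all 4 line pairs. These genes are near-identical copies in a cluster, so how reads were divided among them is uncertain.

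The lists on strain and on the sex chromosomes held no gene without overlap: 0 of the 7 tested genes known to vary between inbred strains, and 0 of the 6 tested genes of X inactivation and the Y chromosome, against 15.1% of all genes; lists this short can hold none at that share. Outside the lists, the predicted gene Gm47283, placed on the Y chromosome by the annotation, did not overlap between models (adjusted p = 0.168). It had 5.62 to 17 CPM in the Snail-IRES-YFP libraries, against 0.47 to 3.23 CPM in the MMTV-PyMT libraries. Whether its reads come from a Y chromosome was not tested. Nnt, which is truncated in the C57BL/6J strain, had 49.4 to 84.6 CPM in the Snail-IRES-YFP libraries and 38.8 to 51.8 CPM in the MMTV-PyMT libraries. Xist, the RNA of the inactive X, had 387 and 956 CPM in Epcam hi and 34.7 and 56.2 CPM in 687g, against 191 and 483 CPM in pB2 and 706 and 608 CPM in pB3. It was detected in all 8 libraries and lowest in 687g.

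Some markers of other cell types differed between libraries. The 13 leukocyte markers summed to 24.9 to 1250 CPM in the Snail-IRES-YFP libraries and 17.5 to 90.9 CPM in the MMTV-PyMT libraries, with 812 and 1250 CPM of S100a8 in 687g. Cd68, a macrophage marker, had 35.5 and 13.4 CPM in Epcam hi and 0.948 and 1.81 CPM in 687g, against 0.518 to 1.29 CPM in the MMTV-PyMT libraries. All 3 leukocyte markers tested were higher by the average, against 21.2% of all genes, but 0 were without overlap and 0 were called in all 4 line pairs. The third, Csf1r, had 0.273 to 2.79 CPM in the Snail-IRES-YFP libraries and 0 to 0.388 CPM in the MMTV-PyMT libraries. Cd4, Cd8a and Ncr1 were at 0 in every library. For S100a8 the rise came from 687g alone. Epcam hi had 7.87 and 9.95 CPM of it, below the 15.7 to 89.5 CPM of the MMTV-PyMT libraries. The 12 fibroblast markers summed to 352 to 1150 CPM in the Snail-IRES-YFP libraries and 78.8 to 207 CPM in the MMTV-PyMT libraries without overlap, Dpt being at 0. Gsn supplied 233 to 464 CPM of it in the Snail-IRES-YFP libraries and Smoc2 786 and 704 CPM in 687g, whereas Fbln1 had 0.0547 to 0.39 CPM in the Snail-IRES-YFP libraries and 1.43 to 17.4 CPM in the MMTV-PyMT libraries. Of the 7 tested, 2 were higher and 3 lower by the average, against 21.2% and 21.5% of all genes. Pdgfra and Col1a1 were among the lower. Without overlap 1 was higher and 2 lower, against 7.26% and 7.85%. In all 4 line pairs 0 were higher and 2 lower, against 1.03% and 1.14%. The 10 endothelial markers summed to 3.29 to 4.85 CPM in the Snail-IRES-YFP libraries and 2.75 to 8.74 CPM in the MMTV-PyMT libraries, with Cldn5 and Tie1 at 0. The 8 adipocyte markers summed to 0.281 to 28.9 CPM in the Snail-IRES-YFP libraries and 0.259 to 21.1 CPM in the MMTV-PyMT libraries, with Adipoq and Lep at 0. The part of these markers in the differences above was not tested.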

How the data were processed

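RNA libraries of 4 mouse mammary carcinoma lines, 2 per line, were made with a KAPA mRNA HyperPrep kit according to the labels' protocols. The submitters' processing notes and design text name STAR 2.6.1a for the alignment of single-end reads to GRCm38, and featureCounts with its setting for reverse-stranded libraries. The deposited files hold raw read counts, in whole numbers, of 53379 Ensembl genes in every library. Symbols and positions came from GENCODE M21, which named 53274 IDs and left 105 unnamed. For Aldoa, which has several IDs, the one with the most counts was kept once the values were known.

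The labels gave the line and the model of each library. Testing used edgeR 4.0.16 (R 4.3.3): filterByExpr by line, TMM scaling, a quasi-likelihood model with a coefficient for each of the 4 lines over all 8 libraries (4 residual degrees of freedom), two-sided F tests and Benjamini-Hochberg adjustment over the 15890 genes that passed. CPM use TMM-scaled totals. P-values measure the spread between libraries of a line, which may be technical. Log2 differences are between model averages. Where a model had 0 counts, a bound was taken against 3 counts over its 4 libraries, and with 1 to 3 counts a ratio of count sums with an exact 95% interval, both covering counting error only. Alternatives were DESeq2 1.42.0, other scalings, filters, counts summed per line, a replicate block and leaving out each library.

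The named genes included Snai1, Vim, Cdh1 and Epcam. The 6 protein-coding genes per direction with the widest gap were added. They were called in all 4 line pairs and had a higher-model mean of 10 CPM or more. Of such genes that were even within models, the 5 per direction with the widest gap were taken. Up to 2 genes per list called in all 4 line pairs and the 2 near Snai1 completed the set. That makes 41 genes; others were chosen after their values were seen. The rule, the genes and the 28 lists (514 genes, 398 tested) were chosen with earlier results of these data known. Scripts were tested on simulated data. Replicate numbers do not pair the libraries. Some list members count in the totals but are not reported here by name.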

Additional observations from a re-analysis of the deposited data

Results flagged for a closer look

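In 82 groups of 4 libraries, those of the 41 named genes in each model, 6 had a library whose distance to its nearest neighbour took up more of the group's range than Dixon's 95% limit for 4 values. About 5% of groups would pass that limit if the 4 values came from 1 population. Here each group joins 2 lines that can differ, so that share does not apply. Among the Snail-IRES-YFP libraries, Maoa was lowest in 687g replicate 1 at 0.836 CPM. Myo5c was highest in Epcam hi replicate 2 at 0.0547 CPM, which is a single read. Hoxa10 was highest in 687g replicate 1 at 0.279 CPM. Inhba was lowest in Epcam hi replicate 1 at 269 CPM. Among the MMTV-PyMT libraries, Selenom was highest in pB2 replicate 1 at 22.9 CPM, and Cd40 was lowest in pB2 replicate 2 at 0 CPM.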

How the results depend on the processing

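The counts by the model average kept within 1.5 times of the values reported under DESeq2, other scalings, other filters and every left-out library. Left-out libraries gave 2605 to 3876 higher and 2637 to 3671 lower, total counts 2921 and 3958, and the stricter filter 2699 and 2568, but with counts summed per line 0 genes were called higher and 0 lower. The counts called in all 4 line pairs ran from 86 to 197 higher and from 108 to 189 lower when a library was left out; the line with 1 library left was assumed to vary like the others. With each pair adjusted separately they were 336 and 353. DESeq2 called 201 higher and 199 lower, and 325 of its 400 genes were shared with the 345 of edgeR. Genes without overlap numbered 2690 higher and 2741 lower between summed lines, which are fewer values to separate, and 1240 to 1576 higher and 1337 to 1611 lower without a library. A gene whose 4 line values stood in random order would separate by model with a probability of 0.333. The count between summed lines is to be read beside that share of the genes tested (15890 in the main fit). Other splits of the 4 lines were not counted. Replicate numbers showed no pairing, with correlations of deviations between lines from -0.10 to 0.17, and the replicate block gave 3332 higher and 3381 lower by the average, 181 and 199 in all 4 line pairs, and 1154 and 1248 without overlap. Over the 41 named genes and 15 settings, 535 values kept direction and side of the threshold, 74 kept direction but missed it, 1 newly passed it (Snai1) and 2 changed sign, Cdh1 at 1.19 and Epcam at 0.78 with counts summed per line. Over 12 settings, those that keep the filter and the libraries as units, the p53 targets gave 6 to 8 genes higher without overlap and hypoxia and glycolysis 5 to 9. With counts summed per line no list gene was called by the average. Depth limits the lowest genes: 3 counts over a model equal 0.0459 CPM in the Snail-IRES-YFP lines and 0.0478 CPM in the MMTV-PyMT lines.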
